A study of Mus musculus with 6 samples.

Results

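Protein prenylation attaches a lipid made from the mevalonate pathway to a cysteine near the end of a protein, and so lets small GTPases and nuclear lamins sit in membranes. Statins lower the supply of mevalonate, upstream of that lipid. Here 10 genes that make the longer lipid, transfer either lipid, or finish the modified protein were followed in colon epithelial cells of mice given atorvastatin. The 10 genes were chosen by name (Ggps1, Fnta, Fntb, Pggt1b, Rabggta, Rabggtb, Chm, Rce1, Icmt and Zmpste24), and all 10 were found among the 52550 Ensembl genes of the deposited tables. Each also passed the filter on low values, at least 1 FPKM (fragments scaled for gene length and for the mapped total of the library) in at least 3 of the 6 libraries, which left 11644 genes to test.

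Both groups were male Apc Min/+ mice, heterozygous for a truncating mutation of the tumour suppressor Apc in all cells, 5 to 6 weeks old and gavaged every second day. The control group received 2% Tween 80 as vehicle, and the other received atorvastatin at 20 mg/kg, with no vehicle stated for it. There were 3 libraries in each group. The labels do not give the length of treatment, or say whether each library came from its own animal, so the p-values measure only the spread between these libraries, which may be technical. Over the libraries the FPKM totals ran from 407857 to 430832, and 11456 to 11655 genes reached 1 FPKM. Mitochondrial genes made up 30.3% to 33.2% of these totals. All 12 epithelial markers examined were expressed, with summed levels of 9734 to 10730 FPKM in control and 9349 to 10740 FPKM with atorvastatin. Car1, Krt8 and Krt19 weigh most in these sums, and 4 of the 12 markers had higher and 8 lower means with atorvastatin. Lgr5 was higher without overlap, at 0.691, 0.627 and 0.706 against 1.06, 1.16 and 1.02 FPKM (limma adjusted p = 0.142). Krt8 was lower without overlap (limma adjusted p = 0.710). The 8 fibroblast and muscle markers summed to at most 0.911 FPKM. Markers of T and NK cells were low and had lower means with atorvastatin for 12 of 12 genes, at summed levels of 18.5 to 33.8 FPKM in control and 13.1 to 18.6 FPKM with atorvastatin. Mast cell markers summed to 13.1 to 25.1 FPKM in control and 8.24 to 10.1 FPKM after treatment, lower for 4 of 5 genes, with Fcer1a near 0. For B and plasma cells the sums were 5.08 to 11.3 and 2.55 to 3.32 FPKM, lower for 3 of 7 genes, with Ms4a1 near 0. For macrophages and dendritic cells they were 3.77 to 6.97 and 2.68 to 3.21 FPKM, lower for 5 of 7 genes, with Cd163 at 0. Of the markers that could be tested, none passed limma's threshold, the smallest adjusted p being 0.0720 (Mcpt1, of mast cells). The filter on low values left 7 of 12 T and NK, 2 of 7 B and plasma and 3 of 5 mast cell markers to test. For macrophages and dendritic cells it left 2 of 7. In bulk RNA of this kind, fewer cells of a type and less RNA per cell cannot be told apart.

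The pathway runs in a fixed order. Farnesyl diphosphate, made by Fdps, is either used directly or lengthened to geranylgeranyl diphosphate by Ggps1. Farnesyltransferase, a pair of Fnta and Fntb, and geranylgeranyl transferase I, a pair of the same Fnta with Pggt1b, act on proteins that end in a CAAX box, in which C is the cysteine that receives the lipid and the last residue largely decides which enzyme acts. Rab proteins are instead carried by the escort protein Chm to geranylgeranyl transferase II, a pair of Rabggta and Rabggtb, which usually modifies a pair of cysteines. After the lipid is on, Rce1 removes the last residues of the CAAX box, Icmt methylates the exposed cysteine, and Zmpste24 cuts prelamin A, the product of Lmna.

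The substrates are shown by the last 8 codons (24 bases) before the stop codon, which hold the cysteines that receive the lipid. From lists of 21 proteins known as farnesylated, 21 known as geranylgeranylated on a CAAX box, and 33 Rab proteins, the 3 genes with the highest mean FPKM in each list are printed, 5′ to 3′ on the coding strand, with the cysteine codon that is the fourth from the end, or the pair of cysteine codons at the end, in capitals. Sequences are from GENCODE M21 transcripts, with positions on GRCm38.
Ptp4a2 (farnesyl, chr4:129847796-129847819, plus strand): accaatgggcacTGCtgtgttcag
Rnd3 (farnesyl, chr2:51132297-51132320, minus strand): aaagcgaagagcTGTactgtgatg
Lmna (farnesyl, chr3:88482077-88482100, minus strand): agctcccagaacTGCagcatcatg
Cdc42 (geranylgeranyl, chr4:137321106-137321129, minus strand): aagagccgcaggTGTgtgctgcta
Rhob (geranylgeranyl, chr12:8499045-8499068, minus strand): tgcatcaactgcTGCaaggtgcta
Rac1 (geranylgeranyl, chr5:143506978-143507001, minus strand): aggaagagaaaaTGCctgctgttg
Rab1a (Rab, chr11:20224819-20224842, plus strand): aagcagtcaggtggaggcTGCTGC
Rab25 (Rab, chr3:88542246-88542269, minus strand): aagagggcctgtTGCatcagcctc
Rab2a (Rab, chr4:8606477-8606500, plus strand): cagcaggcagggggaggcTGCTGT

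A cysteine codon stood at the fourth place from the end in 21 of 21 farnesylated and 21 of 21 geranylgeranylated CAAX genes. The last codon was methionine in 11, glutamine in 6, serine in 3 and alanine in 1 of the farnesylated list. It was leucine in 17, phenylalanine in 2 and another residue in 2 of the geranylgeranylated list. Among the 33 Rab genes, 9 ended in a pair of adjacent cysteine codons and 8 in cysteine codons separated by 1 other. In 14 of the remaining Rab genes, among them Rab25, a cysteine codon stood at the fourth place from the end, and 2 had none of these ends. Of the 33, 28 held 2 or more cysteine codons among their last 5. The lists were drawn from textbook knowledge of these proteins, so the ends describe what the enzymes act on and are not a finding about the treatment.

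Per length of gene, Rabggtb had the highest level of the 10 genes, at a mean of 21.6 ± 1.5 FPKM (SD, n = 6 libraries of both groups), and Rce1 the lowest, at 3.08 ± 0.26 FPKM. Pggt1b came second, at 13.2 ± 0.3 FPKM, and its range over libraries did not touch that of a neighbour in the order. Fnta (9.33 FPKM), Zmpste24 (8.73), Icmt (8.11) and Rabggta (7.73) followed, and their ranges overlapped from each to the next. After a gap came Ggps1 (4.50 FPKM), Chm (4.04) and Fntb (3.83), whose ranges overlapped in the same way, and the range of Rce1 lay below that of Fntb. The 10 means lay between the 27.7th and the 83.0th percentile of the means of the tested genes. Summed over the 10 genes the levels were 82.2, 83.1 and 82.9 FPKM in control libraries and 85.7, 85.3 and 85.3 FPKM in treated ones, a description in which Rabggtb weighs most. Values of single genes were close between libraries, with coefficients of variation over all 6 of 2.22% to 11.4%.

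**Figure D1:**
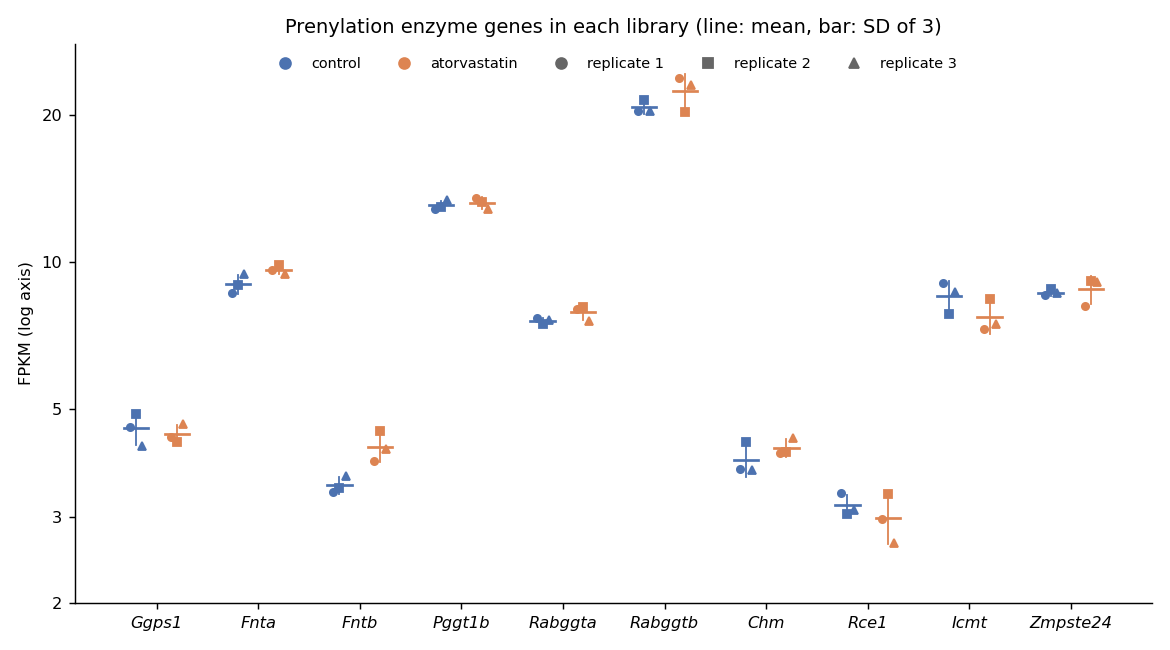
FPKM (log axis) of each of the 10 prenylation genes in the 3 control (blue) and 3 atorvastatin (orange) libraries, with marker shape for the replicate number, a horizontal line at the group mean and a bar of 1 SD. The groups do not overlap for Fnta and Fntb, and overlap for the other 8.

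With atorvastatin, no prenylation gene passed limma's test over all genes. The log2 fold changes of the 10 were 0.01 to 0.21 in size, with a median of 0.04 beside 0.02 over all tested genes. They were positive for 7 and negative for 3 of the 10, beside 6677 and 4967 of the 11644 tested genes. The median absolute log2 fold change of the 10 was 0.07, as it was over all tested genes. At an adjusted p under 0.05, 0 of 10 passed (limma, adjusted p from 0.270 to 0.938), where 0.155% of tested genes passed as higher and 0.249% as lower. At an unadjusted p under 0.05 there was 1 of 10 higher (Fntb), where 7.75% of tested genes were, and 0 of 10 lower, where 4.27% were; limma without its trend and robust options gave the same counts for the 10. Among all tested genes these were 902 higher and 497 lower, a split that became 724 and 691 under median-ratio scaling. The groups did not overlap for 2 of 10, both higher with atorvastatin, beside 12% of tested genes higher and 6.05% lower (1400 and 705 genes, or 1055 and 1028 under median-ratio scaling). With 10 genes to count, these shares lie near the background. The 95% intervals of the 10 genes ran from -0.30 to 0.36 on the log2 scale, or 0.81-fold to 1.28-fold.

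Fntb, the catalytic subunit of farnesyltransferase (ENSMUSG00000033373, chromosome 12, 76765589 to 76921412, plus strand), showed the largest difference. Its levels were 3.38, 3.44 and 3.64 FPKM in the control libraries, against 3.90, 4.50 and 4.14 FPKM in the atorvastatin libraries. All 3 atorvastatin libraries lay above all 3 control libraries, under the deposited scaling and under each of 5 other scalings. Means were 3.49 ± 0.14 and 4.18 ± 0.30 FPKM (SD, n = 3 each), a ratio of 1.20. The log2 fold change of FPKM + 1 was 0.21 ± 0.06 (SE, interval 0.06 to 0.36), with a limma adjusted p of 0.270 and an unadjusted p of 0.0144, and 12.4% of tested genes had a larger absolute change. The exact permutation test gave 0.1, the smallest value that 3 libraries against 3 allow. Without atorvastatin replicate 2, which had the highest level, the log2 fold change was 0.16 and the unadjusted limma p 0.0550. Of the blood cell markers described above, the summed levels of mast cells, of B and plasma cells and of macrophages and dendritic cells were lower in the same libraries without overlap, and their part in this difference was not tested. The part of the epithelial markers Lgr5, higher without overlap, and Krt8, lower without overlap, was not tested either.

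The annotated span of Fntb begins inside Churc1, its upstream neighbour on the same strand, through transcripts that join exons of both genes. Of the 3987 exon bases of Fntb, 257 (6.45%) are shared with Churc1, so some reads could be counted for either gene. Control libraries had 3.23, 3.47 and 3.45 FPKM of Churc1 and treated ones 3.48, 3.24 and 3.57 FPKM, so its groups overlapped (log2 fold change 0.02, limma adjusted p = 0.950). Gpx2 and Rab15 lie on the other strand within the span and share no exon base with Fntb. Gpx2 groups overlapped, at 55.9, 16.7 and 23.7 against 23.2, 27.7 and 24.7 FPKM. Rab15, a Rab GTPase gene, was higher in each atorvastatin library, at 14.3, 12.7 and 14.5 against 15.3, 16.5 and 14.9 FPKM (limma adjusted p = 0.424).

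Fnta, the alpha subunit shared by farnesyltransferase and geranylgeranyl transferase I (ENSMUSG00000015994, chromosome 8, 25998722 to 26015650, minus strand), had 8.62, 8.96 and 9.45 FPKM in control libraries, against 9.62, 9.87 and 9.46 FPKM after atorvastatin. The groups did not overlap, but the gap between control replicate 3 and atorvastatin replicate 3 was narrow, and the groups overlapped under quantile, median-ratio and both equal-total scalings. The log2 fold change was 0.09 ± 0.05 (interval -0.04 to 0.22, limma adjusted p = 0.577). Pggt1b, the beta subunit of geranylgeranyl transferase I (ENSMUSG00000024477, chromosome 18, 46235351 to 46280993, minus strand), had 12.9, 13.0 and 13.4 FPKM in control libraries, against 13.5, 13.3 and 12.8 FPKM after atorvastatin. Its groups overlapped throughout, and the interval of its log2 fold change, -0.10 to 0.13, was the narrowest of the 10 (limma adjusted p = 0.938). Its sign was negative under median-ratio scaling and under equal totals computed without the most abundant and the mitochondrial genes.

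Since both beta subunits pair with the same alpha subunit, levels were also set against each other within each library, where scaling to the library total cancels apart from the pseudocount. The ratio of Fntb to Pggt1b was 0.263, 0.265 and 0.272 in control and 0.288, 0.339 and 0.323 with atorvastatin. It was higher in all 3 atorvastatin libraries than in any control, with a mean difference of 0.19 in log2 ratios of FPKM + 1, the scale of the test (exact permutation p = 0.1, adjusted p = 0.25 over 10 ratios). Fntb to Fnta was 0.387 ± 0.004 in control and 0.433 ± 0.026 with atorvastatin, again without overlap. Pggt1b to Fnta went the other way, from 1.45 ± 0.04 to 1.37 ± 0.03, also without overlap (log2 difference of -0.08 on FPKM + 1). These 3 ratios share genes and so are not separate observations, and none can pass an exact test at this size. Levels of RNA do not give the amounts of the enzyme pairs.

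**Figure D2:**
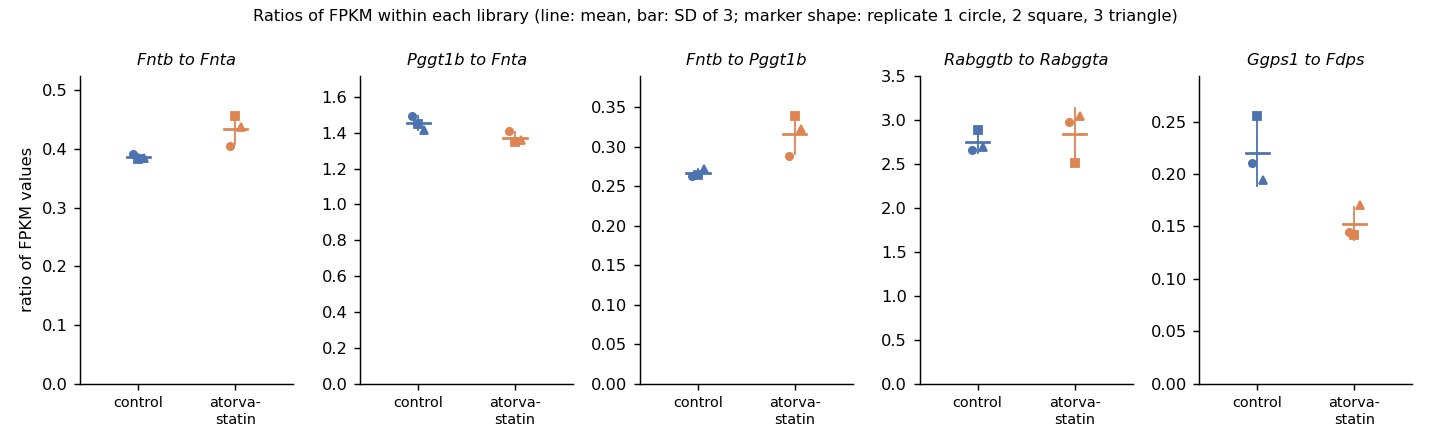
Ratio of the FPKM values of 2 genes within each library, in control (blue) and atorvastatin (orange), with axes from 0, a line at the mean and a bar of 1 SD of 3 libraries. Fntb to Fnta and Fntb to Pggt1b are higher, and Pggt1b to Fnta and Ggps1 to Fdps lower, in each atorvastatin library, while Rabggtb to Rabggta overlaps.

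Ggps1, geranylgeranyl diphosphate synthase (ENSMUSG00000021302, chromosome 13, 14050659 to 14063488, minus strand), stands at the branch that feeds geranylgeranylation. Control libraries had 4.60, 4.88 and 4.19 FPKM of it and treated libraries 4.38, 4.27 and 4.65 FPKM, and the groups overlapped. The log2 fold change was -0.03 ± 0.07 (interval -0.19 to 0.13, limma adjusted p = 0.905). Arid4b, on the opposite strand, shares 257 of the 4721 exon bases of Ggps1 (5.44%) and was at 3.22 to 3.66 FPKM in the 6 libraries, with a log2 fold change of 0.02.

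Ggps1 was then set against Fdps, which makes its substrate. Fdps had 21.8, 19.1 and 21.5 FPKM in the control libraries, against 30.2, 30.0 and 27.2 FPKM in the treated ones, without overlap. Its log2 fold change was 0.47 ± 0.07, with an adjusted p of 0.0557 in limma, and it passed in 4 of 18 alternative fits: those with quantile, median-ratio or upper-quartile scaling and that on genes of at least 5 FPKM (adjusted p 0.0392 to 0.275 over the 18). The ratio of Ggps1 to Fdps was 0.210, 0.255 and 0.195 in control and 0.145, 0.142 and 0.171 with atorvastatin. Every atorvastatin library lay below every control library, a log2 difference of -0.50 on FPKM + 1 (exact permutation p = 0.1, adjusted p = 0.25 over 10 ratios). That was the largest of the 10 ratio differences, with single-gene log2 fold changes of 0.47 for Fdps and -0.03 for Ggps1. Groups did not overlap for 4 of the 10 ratios, this one and those among Fntb, Fnta and Pggt1b, which share genes. No share over other pairs of genes was computed to set beside that count.

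The 5 genes from Mvk to Fdps, which turn mevalonate into farnesyl diphosphate, had positive log2 fold changes of 0.32 to 0.47, with a median of 0.37, and 5 of the 5 had groups that did not overlap, where 12% of all tested genes were higher without overlap (1400 genes, or 1055 under median-ratio scaling), while none passed limma's test over all genes. Idi1, which isomerises the isoprene unit, had 39.2, 42.1 and 42.3 against 50.5, 49.2 and 55.4 FPKM (limma adjusted p = 0.106). Mvd and Pmvk, enzymes between mevalonate and that unit, had log2 fold changes of 0.42 and 0.33 (limma adjusted p = 0.137 and 0.140). These genes are regulated by sterols as a group, and their higher values in these samples were already known when the prenylation genes were chosen.

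**Figure D3:**
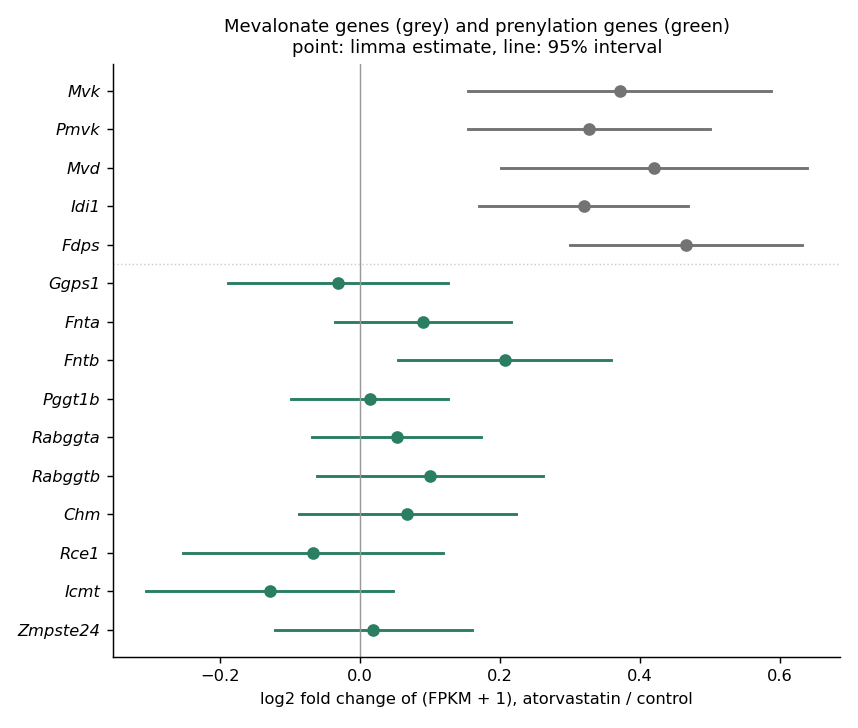
Log2 fold change of FPKM + 1 (x axis, atorvastatin over control) with limma's 95% interval for the 5 mevalonate genes (grey) and the 10 prenylation genes (green), in pathway order from top to bottom. Estimates run from 0.32 to 0.47 in the grey genes and from -0.13 to 0.21 in the green ones, and among the green only the interval of Fntb leaves out 0.

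The 250 bases upstream of the transcription start are shown for Ggps1, which stands at the branch, and for Fntb, which had the largest difference, as RefSeq gives them on GRCm38.p6. Capitals mark the CCAAT box (CCAAT, or ATTGG on the other strand), to which NF-Y binds in promoters of sterol-regulated and other genes.
Ggps1 (chr13:14063489-14063738, minus strand): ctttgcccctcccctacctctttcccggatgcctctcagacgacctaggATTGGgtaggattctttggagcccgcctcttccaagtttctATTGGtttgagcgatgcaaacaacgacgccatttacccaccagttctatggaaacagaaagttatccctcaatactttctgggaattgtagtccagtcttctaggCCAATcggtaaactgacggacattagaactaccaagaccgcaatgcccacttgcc
Fntb (chr12:76837217-76837466, plus strand): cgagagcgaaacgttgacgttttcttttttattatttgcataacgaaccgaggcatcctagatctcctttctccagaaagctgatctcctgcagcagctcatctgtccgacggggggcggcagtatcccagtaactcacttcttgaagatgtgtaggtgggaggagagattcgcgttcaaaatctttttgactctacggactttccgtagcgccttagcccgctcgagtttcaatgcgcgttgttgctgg

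The Ggps1 window held 3 matches and the Fntb window 0. That window of Fntb precedes the start used by its own transcripts and not the start shared with Churc1. Of the 8 prenylation genes with an entry, 4 held the letters in at least 1 window (Ggps1, Rabggtb, Rce1 and Zmpste24), as did the 4 mevalonate genes with an entry (Mvk, Pmvk, Mvd and Idi1), where 37.5% of 27025 genes did. Fnta, Pggt1b and Fdps have no entry. A sterol regulatory element was searched as TCACNCCAC on both strands, and 0 of the 8 and 0 of the 4 genes held it, where 1.23% of all genes did. A match is a description of the letters and not of binding, and no match says only that these letters are not in the window.

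Rab geranylgeranylation was covered by 3 genes, none of which passed. Rabggtb, the beta subunit (ENSMUSG00000038975, chromosome 3, 153907287 to 153913009, minus strand), had 20.4, 21.5 and 20.4 FPKM in control libraries, against 23.8, 20.3 and 23.0 FPKM after atorvastatin. Atorvastatin replicates 1 and 3 were above all controls and replicate 2 below them, so the groups overlapped (log2 fold change 0.10 ± 0.07, limma adjusted p = 0.637). Without that replicate the log2 fold change was 0.17 (limma unadjusted p = 0.0311, adjusted p = 0.494), and without atorvastatin replicate 1, the highest library, it was 0.06 (limma unadjusted p = 0.472). The gene hosts snoRNAs, of which Snord45b and Snord45c share 71 and 80 exon bases with it and were listed at no more than 0.0546 FPKM. A further snoRNA gene in its span, Gm24494, shares no exon base with it.

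Rabggta, the alpha subunit (ENSMUSG00000040472, chromosome 14, 55715416 to 55722263, minus strand), had 7.66, 7.45 and 7.60 FPKM in control libraries, against 8.02, 8.10 and 7.57 FPKM after atorvastatin. Atorvastatin replicate 3 lay within the control range, although under upper-quartile scaling the groups did not overlap (limma adjusted p = 0.757, interval of the log2 fold change -0.07 to 0.17). Rabggtb to Rabggta was 2.74 ± 0.12 in control and 2.84 ± 0.29 with atorvastatin, with overlap. Chm, Rab escort protein 1 (ENSMUSG00000025531, chromosome X, 113040593 to 113185517, minus strand), had 3.76, 4.28 and 3.74 FPKM against 4.05, 4.07 and 4.36 FPKM (limma adjusted p = 0.755, log2 fold change 0.07, interval -0.09 to 0.22). The value of Chm was 0.12 without control replicate 2 and 0.04 without control replicate 1, control replicate 3 or atorvastatin replicate 3. Chml, the related escort protein 2, was at a lower level, 2.14 ± 0.08 and 2.23 ± 0.17 FPKM, and Chm to Chml was 1.84 ± 0.12 and 1.88 ± 0.19. Chm to Rabggtb, the escort against the beta subunit, was 0.189 ± 0.009 and 0.187 ± 0.016, with overlap. Ptar1, which pairs with Rabggtb in a further transferase, had means of 3.83 FPKM in both groups (limma adjusted p = 0.986), and Ptar1 to Rabggta was 0.505 ± 0.065 and 0.485 ± 0.012, again with overlap.

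The 3 enzymes that finish CAAX proteins also did not pass. Icmt, the methyltransferase (ENSMUSG00000039662, chromosome 4, 152297227 to 152307121, plus strand), had 9.06, 7.81 and 8.67 FPKM in control libraries, against 7.28, 8.38 and 7.45 FPKM after atorvastatin. Atorvastatin replicates 1 and 3 were below all controls, and replicate 2 lay between them. Its log2 fold change of -0.13 ± 0.08 was the most negative of the 10 (interval -0.30 to 0.05, limma adjusted p = 0.570), and without control replicate 2 it was -0.18 (limma unadjusted p = 0.0472, adjusted p = 0.403).

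Rce1, the CAAX protease (ENSMUSG00000024889, chromosome 19, 4622591 to 4625641, minus strand), had 3.36, 3.04 and 3.11 FPKM in control libraries, against 2.97, 3.34 and 2.65 FPKM after atorvastatin, with overlap (log2 fold change -0.07 ± 0.08, limma adjusted p = 0.806). The value of Rce1 was -0.13 without atorvastatin replicate 2 and -0.01 without atorvastatin replicate 3. Zmpste24 (ENSMUSG00000043207, chromosome 4, 121059237 to 121098241, minus strand) had 8.54, 8.79 and 8.65 FPKM in control libraries, against 8.13, 9.16 and 9.12 FPKM after atorvastatin. Its control libraries fell inside the spread of the atorvastatin libraries (log2 fold change 0.02 ± 0.06, limma adjusted p = 0.934), and the sign turned under quantile and median-ratio scaling. Lmna, which encodes its substrate prelamin A and whose coding end is shown above, had means of 68.8 ± 3.7 and 70.3 ± 9.6 FPKM. Within libraries, Rce1 to Icmt was 0.373 ± 0.016 in control and 0.388 ± 0.028 after treatment, and Zmpste24 to Rce1 was 2.74 ± 0.18 and 2.97 ± 0.41, both with overlap. Of the genes whose spans overlap these enzymes, Rnf207 shares 103 exon bases (1.95%) with Icmt and Gm26186 shares 125 (1.75%) with Zmpste24, and neither exceeded 0.0291 FPKM.

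The same limma fit gave 0 calls at an adjusted p under 0.05 in each list of other genes of the pathway. Beside the counts of each list at an unadjusted p under 0.05 stand the shares of all tested genes, 7.75% higher and 4.27% lower. In the list of isoprenoid supply and other users of these lipids 13 of 14 fold changes were positive, beside 6677 of 11644 tested genes. The median log2 fold change was 0.13, and 5 genes were higher and 1 lower at an unadjusted limma p under 0.05. The 5 higher genes were those from Mvk to Fdps described above, so the counts are not separate observations. The lower gene was Nus1, a subunit of the dolichol-making enzyme, with means of 28.2 and 25.4 FPKM in the control and treated groups (limma adjusted p = 0.368). Of the 12 genes that carry or recycle prenylated proteins 11 were tested, 7 positive and 4 negative, with a median of 0.03 and 0 at an unadjusted p under 0.05. They included Rap1gds1, a chaperone of small GTPases, with a log2 fold change of 0.17, Pde6d, a carrier of farnesylated proteins, with -0.11, and the GDP dissociation inhibitors Arhgdia (0.08) and Gdi2 (0.06). Arhgdib, the inhibitor found mainly in blood cells, did not pass the filter, with means of 1.51 ± 0.54 and 0.648 ± 0.105 FPKM.

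Among the substrates of farnesyltransferase 19 of 21 were tested, 8 positive and 11 negative, with a median of -0.01 and 2 higher at an unadjusted p under 0.05. Those were Nap1l1, a histone chaperone, with 11.7 ± 1.4 and 15.6 ± 0.05 FPKM, and the lamin gene Lmnb1, with 18.5 ± 0.9 and 22.7 ± 1.8 FPKM (limma adjusted p = 0.11 and 0.183). Nap1l1 passed in 1 of 18 alternative fits, without control replicate 2 (adjusted p 0.0394 to 0.352 over the alternatives). Cenpe, a kinesin of the kinetochore, and Ptp4a2, a phosphatase, had log2 fold changes of 0.33 and 0.12.

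Of the 21 geranylgeranylated CAAX genes 18 were tested, 10 positive and 8 negative, with a median of 0.003. Rac2, a Rac GTPase of blood cells, had an unadjusted p under 0.05 on the lower side, with 1.49, 1.58 and 0.887 FPKM in control libraries, against 0.665, 0.422 and 1.06 FPKM after treatment (limma adjusted p = 0.377). The summed markers of mast cells, of B and plasma cells and of macrophages and dendritic cells given above are lower after treatment without overlap, those of T and NK cells overlap, and their part was not tested. Rhoc, Rhob and Gng12, which encode 2 small GTPases and a G protein gamma subunit, had log2 fold changes of -0.17, -0.18 and 0.10. Cdc42, the most abundant of the list, had 127 ± 1 and 127 ± 2 FPKM.

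For the Rab genes 31 of 33 were tested, 14 positive and 17 negative, with a median of -0.01, and 1 was higher and 1 lower at an unadjusted p under 0.05, shares that do not exceed those of all tested genes. Rab4b, of recycling endosomes, had 6.15, 4.38 and 5.54 FPKM in control libraries, against 7.38, 7.16 and 7.93 FPKM after treatment (limma adjusted p = 0.175). Rab8b, of polarised secretion, had 3.22, 3.46 and 3.23 against 2.59, 2.47 and 2.88 FPKM (limma adjusted p = 0.210). Rab27b and Rab2a had log2 fold changes of 0.17 and 0.11.

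**Figure D4:**
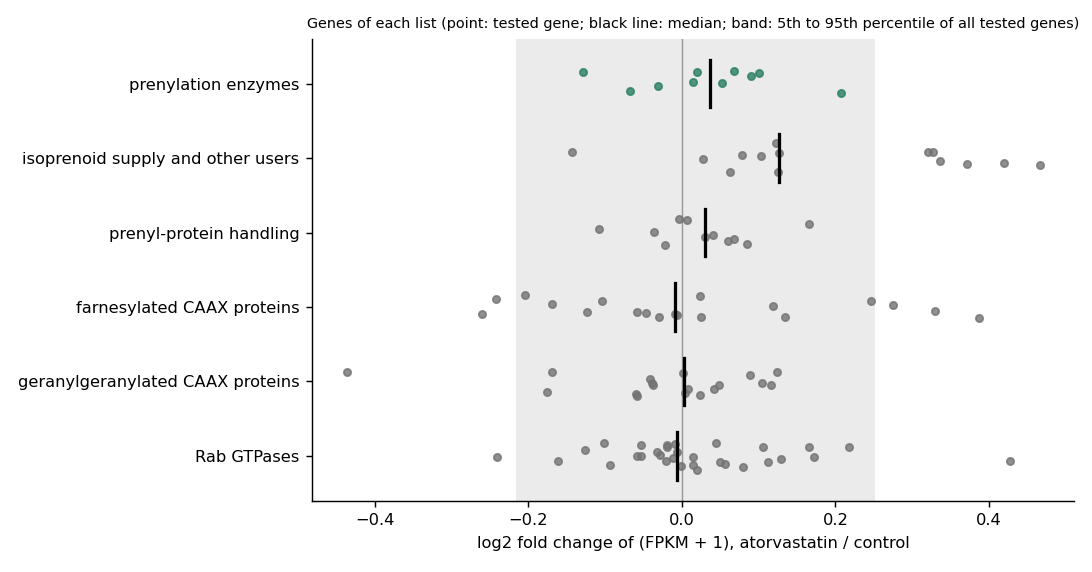
Log2 fold change of FPKM + 1 (x axis) of each tested gene (points, spread vertically for display) in the prenylation enzymes and the 5 pathway lists, with a black line at each median and a grey band from the 5th to the 95th percentile of all tested genes (-0.21 to 0.25). The prenylation enzymes all lie inside the band, and genes above it are most frequent in the isoprenoid supply list.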

How the data were processed

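The authors deposited 1 table per library, and its values were read as FPKM because they are fractional and their totals differ between libraries. The submitters' processing notes name FastQC 0.11.2, Bowtie and mm10. How fragments were quantified, with which annotation and strand setting, and how multiply mapped reads were handled is not given in the sources used here. Sequencing depth is unknown, and precision is known only through the spread of 3 libraries per group. The commonest low value of short genes put the relative depth at 0.996 to 1.14 of control replicate 1, assuming it stands for the same reads and length in each library.

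Gene names matched 99.7% of identifiers, and spans came from GENCODE M21 on GRCm38. Genes reaching 1 FPKM in 3 or more libraries were compared as log2(FPKM + 1) with limma 3.58.1 in R 4.3.3 (trended, robust, two-sided), with Benjamini-Hochberg adjustment over all tested genes and a threshold of 0.05. This scale understates changes of low genes. The fit was tested on simulated data. Ratios of genes used a two-sided exact permutation test. Alternatives were other pseudocounts, filters and scalings, limma without trend and robust options, a replicate block, and leaving out each library.

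The members, lists and tests were chosen with earlier results of these data known. Named are the 10 members, the genes overlapping them and others fixed by name, among them Fdps, Chml and Ptar1, and the 4 smallest p-values of each list. Mvk, Nus1, Lmna, Cdc42 and Arhgdib were added after their values were seen, and genes with printed coding ends were chosen by mean level. Not every gene that the naming rule covers is reported here. The plan was to print protein ends. Protein sequences were not used here, and coding ends from GENCODE M21 and promoters from RefSeq (GRCm38.p6) were shown instead.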

Additional observations from a re-analysis of the deposited data

How the results depend on the processing

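None of the 10 prenylation genes passed limma's adjusted threshold under any of the 18 alternatives, though 4 of them (Ggps1, Fntb, Chm and Rce1) were not tested under the filter of 5 FPKM. With 3 libraries per group and unknown depth, differences inside the printed intervals could not be resolved. With that filter the members at an unadjusted p under 0.05 numbered 0, since Fntb was not tested, all tested genes gave 470 higher and 292 lower at that p and 744 higher and 429 lower without overlap, and the supply list had a median log2 fold change of 0.22, from fewer genes. With no filter, calls over all genes fell from 47 to 2, genes lower at an unadjusted p numbered 951, and 2255 higher and 1487 lower did not overlap. In the supply list 1 gene, Fdps, passed with the 5 FPKM filter and with quantile, median-ratio or upper-quartile scaling.

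The sign of Pggt1b turned under median-ratio scaling (-0.0071) and under equal totals without abundant and mitochondrial genes (-0.0029). That of Zmpste24 turned under quantile (-0.00024) and median-ratio scaling (-0.0013). That of Ptar1 turned under quantile scaling (-0.013), median-ratio scaling (-0.012) and equal totals without abundant and mitochondrial genes (-0.0083). These values lie close to 0. The same scalings moved the median of all genes by -0.019 (median-ratio), -0.016 (equal totals without abundant and mitochondrial genes) and -0.014 (quantile).

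Leaving out 1 library gave 1 to 2 members at an unadjusted p under 0.05 and 2 to 67 calls over all genes. Over all genes 558 to 895 were higher and 367 to 584 lower at that p, and 1735 to 2264 higher and 933 to 1417 lower did not overlap, where fewer libraries make overlap rarer. Median log2 fold changes ranged from 0.13 to 0.20 for supply, -0.0036 to 0.047 for handling, -0.029 to 0.0058 for farnesylated (0 to 1 passed), -0.017 to 0.038 for geranylgeranylated and -0.022 to 0.013 for Rab genes. Among values that kept their sign, Rce1 ranged from -0.13 to -0.0051, Chm from 0.041 to 0.12, Rabggtb from 0.056 to 0.17, Rap1gds1 from 0.066 to 0.29 and Rhoc from -0.24 to -0.090. Signs varied for Ggps1 (-0.080 to 0.011), Pggt1b (-0.0021 to 0.034), Zmpste24 (-0.0071 to 0.070), Ptar1 (-0.088 to 0.064) and Chml (-0.0036 to 0.067), and for the log2 ratios of Chm to Rabggtb (-0.087 to 0.027), Chm to Chml (-0.025 to 0.084) and Ptar1 to Rabggta (-0.13 to 0.0086).

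Same-numbered libraries did not deviate together (correlations of -0.14, -0.11 and 0.014), so the numbers were not taken to pair them. With the replicate block 1 gene passed in place of 47, no prenylation gene did, and Fntb had a limma adjusted p of 0.472.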

Other observations

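Rab22a, an endosomal Rab gene chosen after its values were seen, was at 9.02 FPKM in control replicate 1 and 9.13 FPKM in atorvastatin replicate 2, and at 2.54 to 2.69 FPKM in the other 4 libraries. Its group means were 4.75 and 4.77 FPKM, and its 95% interval for the log2 fold change (-1.34 to 1.33) was wider than that of any of the 10 prenylation genes.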
